A study of Mus musculus with 4 samples.

Results

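The genes described here were listed as components of adherens and tight junctions, the belts that join epidermal cells to each other. They are the cadherins Cdh1 and Cdh3, the catenins Ctnna1, Ctnnb1 and Ctnnd1, and the claudins Cldn1 and Cldn4. The others are the scaffold Tjp1 and the MARVEL domain proteins Ocln and Marveld1. The 10 genes were taken as a list, and all their probe sets were found by the gene symbol of the array's annotation. The list was matched by 25 of the 45037 probe sets that are not controls, and by 10 of the 18193 genes with a name of their own. The arrays compared epidermal cells, sorted from the basal layer of E16.5 mouse embryos, that differed in serum response factor (SRF), a transcription factor of actin cytoskeleton and growth response genes. In the 2 cKO samples both Srf alleles were floxed (SRF fl/fl), and in the 2 het samples 1 allele was (SRF fl/+). All 4 carried K14-Cre, which is active in basal keratinocytes, and the YFP reporter allele ROSA26 YFP fl/fl, so the controls had Cre too and could lose 1 Srf allele. The design text calls the het genotype WT, and the strain label of the het samples reads only Rosa26. Viable single cells were sorted on α6 integrin and YFP. The labels do not say whether a sample was 1 embryo or a pool, so the spread between these samples may in part be technical. The p-values rest only on that spread and on a variance shared across all tested probe sets.

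Adherens junctions hold neighbouring epithelial cells together. The outer parts of classical cadherins bind each other between cells, while inside the cell they bind β-catenin and p120-catenin, and α-catenin ties the complex to actin filaments. Tight junctions lie closer to the cell surface and seal the space between cells: claudins form the strands, occludin and related MARVEL proteins join them, and ZO proteins anchor the strands to actin. In the epidermis, E-cadherin is found in all living layers, P-cadherin mainly in the basal layer and in hair follicle buds, and sealing tight junctions lie in the granular layer.

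Each sample title carries a number, and each number occurs once per genotype: the first in het_1210 and Ko_1210, the second in het_1261 and KO_1261. The labels do not say what it marks. The poly-A controls spiked into the RNA were 2.43-fold (het) and 2.54-fold (cKO) higher with the first number, at 24 of 24 probe sets, so the numbers went with a technical difference. The differences between genotypes were therefore taken within each number and, in limma, with the number as a block. Xist, the RNA of the inactive X chromosome, had signals of 62.6 and 115.4 with the first number and 14338 and 22802 with the second (het, then cKO), and the Y-linked Eif2s3y had 1485, 1386, 833.9 and 3.01 in the same order. The arrays of the numbers thus also differed in sex-linked transcripts, and within the second number the genotypes did as well. The array het_1261 had high signals of both Xist (14338) and Eif2s3y (833.9). Whether that sample held cells of both sexes was not tested. The targeted gene was lower in both cKO samples: Srf had signals of 833.9 and 1108 in het and of 47.9 and 80.4 in cKO. The 8 markers of basal keratinocytes, among them Krt5, Krt14 and Trp63, all had signals of at least 2348 on each array, and 0 of the 8 passed between the genotypes. In sorted cells measured in bulk, fewer cells of a type and less RNA per cell cannot be told apart.

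Of the 10 listed genes, Marveld1 alone had a probe set that passed the test between the genotypes, and it did so only in fits with the number as a block. Of the 25 probe sets, 21 passed the filter on dim probe sets (a mean signal above 65.9) and were tested, and each of the 10 genes had at least 1 of them. Without a block, limma passed 0 of the 21 at an adjusted p of 0.05, against 0% of all 22518 probe sets tested. An unadjusted p under 0.05 was found at 1 of the 21, against 108 of the 22518. In the blocked fit 1 of the 21 rose, a Marveld1 probe set, and 0 fell, while 0.364% of all tested probe sets rose and 0.497% fell. There 3 of the 21 had an unadjusted p under 0.05, against 2084 of the 22518. The genes were chosen with earlier results of these data known, so these shares are a description only. The signals of both cKO arrays lay above both het arrays at 1 of the 21 probe sets (7.91% of all tested probe sets) and below them at 6 (10.4%). At the other 14 the groups overlapped. Of the 21, 12 were higher in cKO and 9 lower, with a median log2 difference of 0.04, against -0.01 over all tested probe sets. All differences below are cKO minus het of log2(signal + 1), so they understate the change of dim probe sets. Their standard error (SE) and 95% interval come from the fit with the block, which draws mostly on a variance shared by all probe sets.

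**Figure D1:**
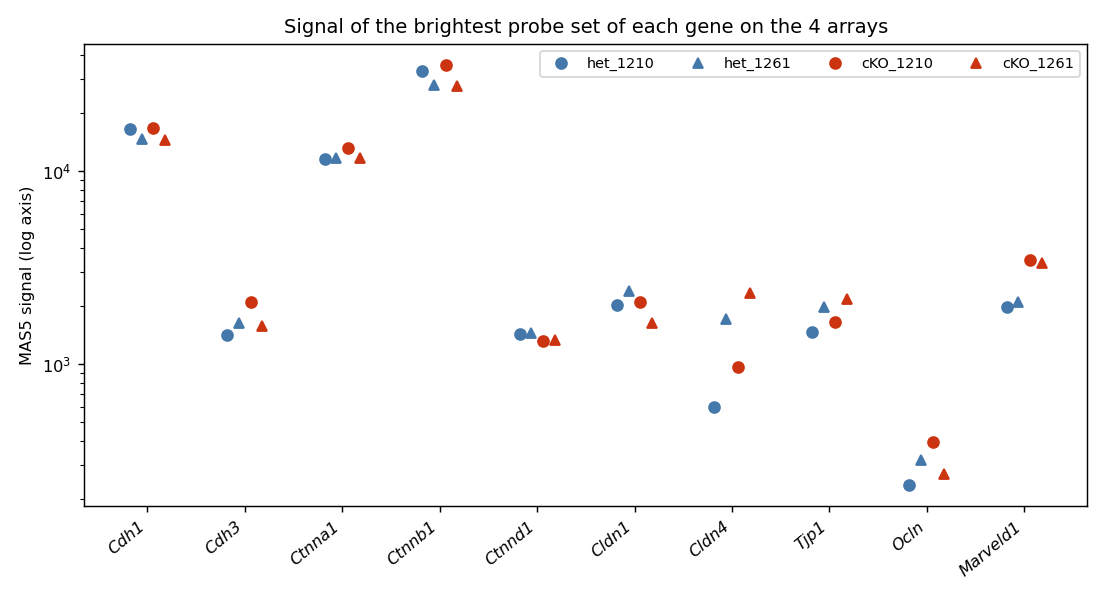
MAS5 signal, on a log axis, of the brightest probe set of each gene on the 4 arrays, with het in blue, cKO in red, titles ending in _1210 as circles and titles ending in _1261 as triangles. Marveld1 is the gene whose cKO arrays (3451 and 3324) both lie above its het arrays (1971 and 2084); heights are not comparable between genes, because probe sets differ in brightness.

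No difference in E-cadherin transcript was detected, and its interval was narrow in the fit with the block. Cdh1, which encodes it, had signals of 16526 and 14565 in het (first and second number, here and in all that follows) and of 16746 and 14487 in cKO. Both genotypes were a little higher in the first number, and each cKO array lay close to the het array of its number. The log2 difference was 0.01 ± 0.13 (SE), with an interval from -0.25 to 0.26, which allows a change from 0.84-fold to 1.2-fold. Without the block the interval was wider, from -0.64 to 0.65 in log2. The group means were 15545 ± 1387 in het and 15616 ± 1597 in cKO (SD, n = 2). Cdh3, which encodes P-cadherin, had 1414 and 1634 in het and 2093 and 1580 in cKO. Its cKO array was higher within the first number (0.57) and not within the second number (-0.05), and the groups overlapped. The difference of 0.26 ± 0.17 (-0.09 to 0.61) did not pass (limma with the block, adjusted p = 0.709). Its dimmer probe set 1441255_at had 169.2 and 146.7 in het and 175.6 and 129.2 in cKO, a difference of -0.06 ± 0.32. Cdh3 and Cdh1 are neighbouring protein-coding genes on the chromosome.

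No difference passed for β-catenin or α-catenin either. Ctnnb1, the β-catenin that binds the cadherin tail and also serves in Wnt signalling, had signals of 32996 and 27749 in het and 35365 and 27485 in cKO at its brightest probe set. The difference was 0.04 ± 0.12, with an interval from -0.20 to 0.29. Its probe set 1450008_a_at had 4626 and 6463 in het and 4806 and 6687 in cKO, a difference of 0.05 within each number. Ctnna1, the α-catenin that links the complex to actin, had 11564 and 11725 in het and 13082 and 11668 in cKO at 1437807_x_at (0.09 ± 0.13, from -0.18 to 0.35). At 1448149_at it had 8944 and 9240 in het and 8882 and 8776 in cKO. Both cKO arrays were below both het arrays there, but by only -0.04 ± 0.13, with an interval from -0.31 to 0.23.

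p120-Catenin, the product of Ctnnd1, holds cadherins at the cell surface. Its transcript was slightly lower in cKO at both tested probe sets in the deposited scaling. At 1437448_s_at the signals were 1434 and 1454 in het and 1308 and 1330 in cKO, a difference of -0.13 within each number. At 1422450_at they were 676.4 and 809.3 in het and 546.4 and 637.9 in cKO, with -0.31 and -0.34 within the numbers. The groups did not overlap at either probe set, and 10.4% of all tested probe sets had both cKO arrays below both het arrays. Neither passed: the fitted differences were -0.13 ± 0.17 (adjusted p = 0.891) and -0.33 ± 0.19 (0.658). At 1437448_s_at the difference depended on the scaling, with -0.009 after median centring and -0.17 after quantile scaling. The observed spread within the groups at 1437448_s_at (SD 14.0 in het and 15.4 in cKO, n = 2) was smaller than the difference of the means, 1444 against 1319, while the SE of the fit exceeded the fitted log2 difference. That SE rests mostly on the variance of all probe sets of like brightness.

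Some catenin probe sets differed far more between the numbers than between the genotypes. The Ctnna1 probe set 1436631_at had 84.6 in het and 99.5 in cKO in the first number, and 1241 and 1162 in the second number. It was thus 14.7-fold (het) and 11.7-fold (cKO) higher in the second number, while 1437807_x_at of the same gene differed by 1.01-fold and 0.892-fold. The Ctnnd1 probe set 1445830_at, whose mean lay under the filter, had 5.92 and 15.6 in the first number and 368.2 and 439.2 in the second number. A difference of at least 10-fold between the numbers in both genotypes was seen at 2 of the 25 probe sets of the junction genes and at 0.622% of the 45037. The Ctnnb1 probe set 1430533_a_at was 2.02-fold (het) and 3.04-fold (cKO) higher in the second number, where the brightest Ctnnb1 probe set was lower (0.841-fold and 0.777-fold). Within each number these 3 probe sets differed between the genotypes by 0.23 and -0.09 (Ctnna1), 1.26 and 0.25 (Ctnnd1, from signals near background in the first number) and -0.43 and 0.16 (Ctnnb1). The number difference thus depended on which probe set of a gene was read.

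**Figure D2:**
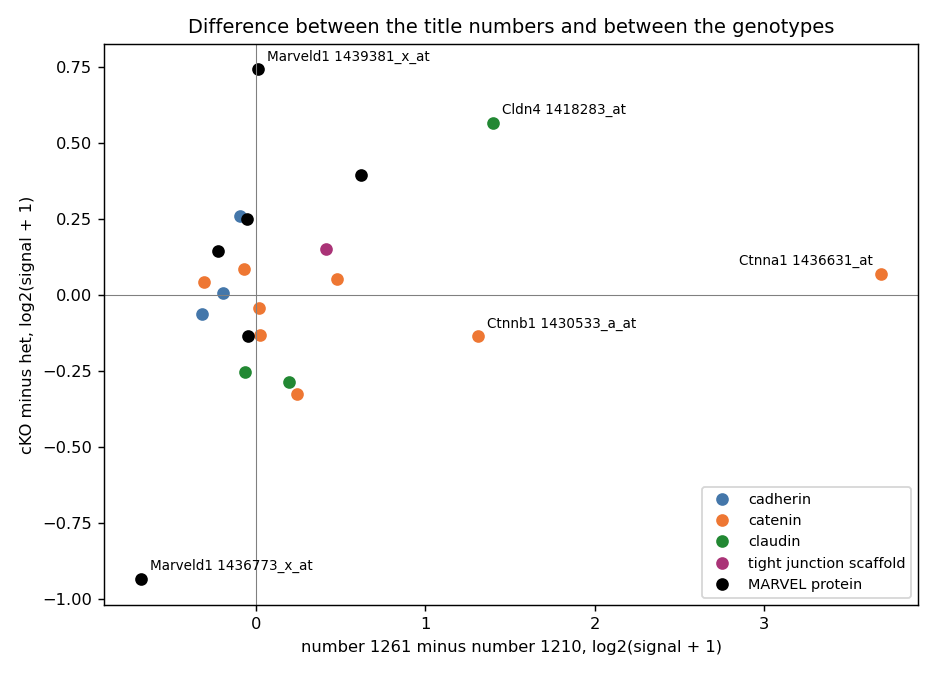
Log2 difference between the title numbers (second minus first, horizontal) and between the genotypes (cKO minus het, vertical) for each of the 21 tested probe sets, from the fit with the block and coloured by role. The Ctnna1 probe set 1436631_at lies far to the right at 3.70 with a genotype difference near 0, while the Marveld1 probe set 1439381_x_at lies at 0.01 on the number axis and 0.74 on the genotype axis.

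In the fit with the block, the number itself passed at 6 of the 21 probe sets, 5 of them higher in the second number, against 34.6% of all tested probe sets. Those 6 were the Ctnna1 probe set 1436631_at, the 3 Ctnnb1 probe sets, Cldn4 and Tjp1. For 10 of the 21 the number difference was larger than the genotype difference, compared with 75% of all tested probe sets.

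The claudins Cldn1 and Cldn4 differed in opposite directions, and neither passed. Cldn1 encodes a strand protein needed for the water barrier of the skin. Its brightest probe set had 2030 and 2396 in het and 2105 and 1624 in cKO, so the cKO array was lower in the second number (-0.56) and not in the first number (0.05). Its probe set 1450014_at gave the same picture, with 339.7 and 460.5 in het, 330.0 and 317.9 in cKO, and differences of -0.04 and -0.53. The fitted differences were -0.25 ± 0.17 (adjusted p = 0.703) and -0.29 ± 0.23 (0.78). The other 2 Cldn1 probe sets lay below the filter, with signals from 1.45 to 86.9. Cldn4, a claudin of differentiated and simple epithelial cells, had 598.0 and 1712 in het and 961.5 and 2335 in cKO. Each cKO array was higher than the het array of its number (0.68 and 0.45), but the groups overlapped, as het_1261 lay above Ko_1210. The signal was 2.86-fold (het) and 2.43-fold (cKO) higher in the second number. The genotype difference of 0.57 ± 0.17 (0.21 to 0.92, or 1.16-fold to 1.89-fold) had an unadjusted p of 0.00256 and an adjusted p of 0.143 in limma with the block. Fitted without the block, it was -0.19 with het_1210 left out and -0.074 with KO_1261 left out, settings in which the numbers are unbalanced between the genotypes. Cldn3, the next protein-coding gene to Cldn4, lay below the filter (signals from 10.6 to 94.5). The same held for Cldn16 beside Cldn1 (12.4 and 2.17 in het, 43.9 and 2.82 in cKO).

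Tjp1 and Ocln did not pass either. Tjp1, which encodes the scaffold ZO-1 that binds claudins and actin, had 1469 and 1978 in het and 1650 and 2171 in cKO, with small differences of the same sign within both numbers (0.17 and 0.13). The fitted difference was 0.15 ± 0.16, with an interval from -0.18 to 0.48. Ocln, which encodes occludin, had 234.8 and 318.9 in het and 393.5 and 269.6 in cKO at its brighter probe set. The cKO array was higher within the first number (0.74) and lower within the second number (-0.24). The difference of 0.25 ± 0.25 had an interval from -0.27 to 0.77. The dimmer Ocln probe set 1440220_at had 116.5 and 106.8 in het and 100.3 and 102.7 in cKO (-0.14 ± 0.39), near the filter.

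**Figure D3:**
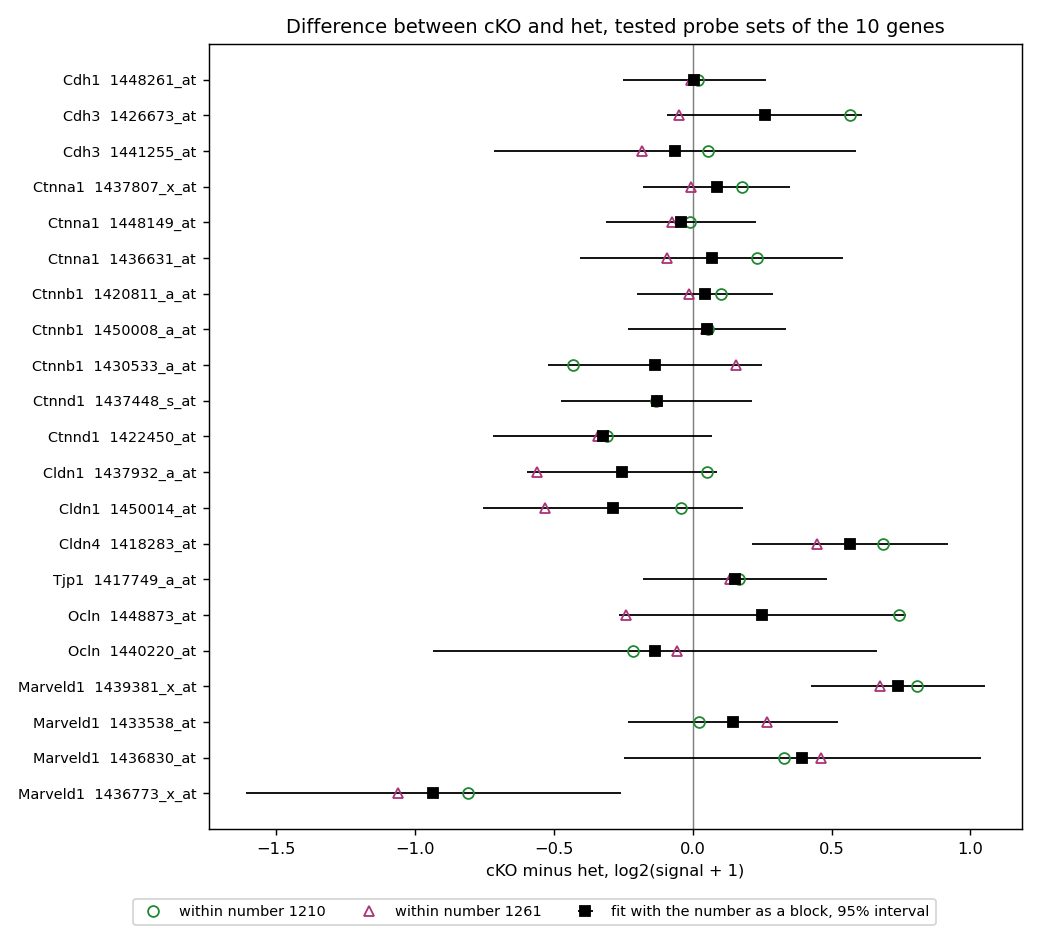
Log2 difference between cKO and het for the 21 tested probe sets: squares and lines give the fit with the number as a block and its 95% interval, circles the difference within the first number and triangles that within the second number. The intervals of Cldn4 and of the Marveld1 probe sets 1439381_x_at (above 0) and 1436773_x_at (below 0) do not include 0; of these, 1439381_x_at passed after adjustment.

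Marveld1 encodes a membrane protein named for its MARVEL domain, which occludin also has. Whether Marveld1 is part of the junctions in these cells was not tested. Its brightest probe set, 1439381_x_at, had signals of 1971 and 2084 in het and 3451 and 3324 in cKO, so both cKO arrays were well above both het arrays. The means were 2027 ± 79.4 and 3388 ± 89.8 (SD, n = 2), a 1.67-fold difference. The probe set rose by 0.74 ± 0.15 in log2 (0.81 and 0.67 within the numbers), with an interval from 0.43 to 1.05 and an adjusted p of 0.00745 in limma with the block (0.0158 with a robust prior). Without the block the unadjusted p was 0.0168 and the probe set did not pass. The call also ended with the block when the variance trend was left out (adjusted p = 0.736) and when no filter on dim probe sets was used (0.107). Over all the blocked settings run, the adjusted p lay between 0.00369 and 0.736.

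The other Marveld1 probe sets did not pass. The second brightest, 1433538_at, had 905.2 and 712.0 in het and 920.0 and 856.1 in cKO, a difference of 0.14 ± 0.19 (-0.23 to 0.52). This interval and that of the brightest probe set overlap only between 0.43 and 0.52. Probe set 1436830_at had 113.4 and 166.6 in het and 142.8 and 229.6 in cKO (0.39 ± 0.32). Probe set 1436773_x_at had 242.2 and 164.8 in het and 137.8 and 78.5 in cKO, so both cKO arrays were below both het arrays. Its difference was -0.93 ± 0.33 (-0.81 and -1.06 within the numbers), with an unadjusted p of 0.00804 and an adjusted p of 0.262. Relative to the brightest probe set, its signal was 12.3% and 7.91% in het and 3.99% and 2.36% in cKO. Both probe sets that moved most end in x_at, the array maker's mark for probe sets that hold probes similar to other transcripts. Whether they read Marveld1 alone was not tested. The data thus give a rise at 1 of 4 Marveld1 probe sets and do not settle a change of the gene as a whole.

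**Figure D4:**
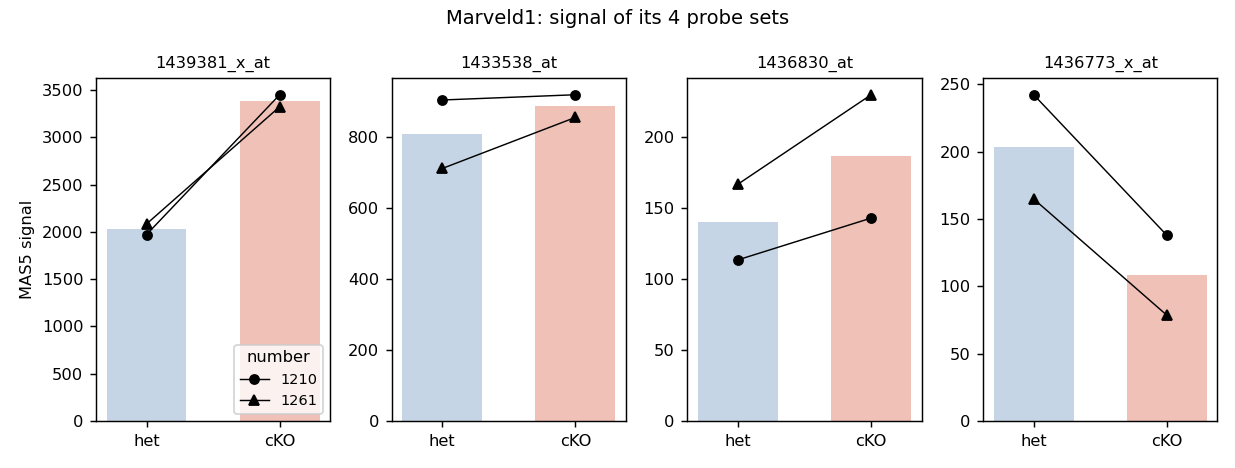
MAS5 signal of the 4 Marveld1 probe sets, each on its own axis from 0. Bars are group means (n = 2), and lines join the het and cKO arrays of the first number (circles) and the second number (triangles). Probe set 1439381_x_at is higher in cKO within both numbers, 1436773_x_at is lower within both, and the other two differ less.

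The promoters of these genes were searched for the CArG box, the sequence that SRF binds, because Srf is the gene deleted here. RefSeq sequences on GRCm38.p6 were at hand for 7 of the 10 genes: Ctnnb1, Ctnnd1, Cldn1, Cldn4, Tjp1, Ocln and Marveld1. They gave 10 promoters of 300 bases, from 250 before to 50 after a transcript's start. A full CArG box, with 0 mismatches, was found in 0 of these 10 promoters and in 1.63% of all 32851; the motif reads as the same class on either strand. The Srf promoter itself held 2. Among the other junction genes described below, 3 of 55 genes (5.45%) held one, against 1.81% of all 27025 genes: Vcl, Cldn12 and Lima1. The sequences show the 250 bases before the start for Marveld1 and Cldn4, the genes with the largest differences, and for Vcl, which holds the motif. Capitals mark the CArG box. They lie at chr19:42147139-42147388 (+ strand, Marveld1), chr5:134946935-134947184 (- strand, Cldn4) and chr14:20929148-20929397 (+ strand, Vcl).
Marveld1: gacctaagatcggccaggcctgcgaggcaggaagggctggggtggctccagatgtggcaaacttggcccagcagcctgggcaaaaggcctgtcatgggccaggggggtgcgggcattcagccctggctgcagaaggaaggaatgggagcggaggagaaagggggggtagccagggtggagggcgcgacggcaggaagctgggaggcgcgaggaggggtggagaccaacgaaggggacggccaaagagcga
Cldn4: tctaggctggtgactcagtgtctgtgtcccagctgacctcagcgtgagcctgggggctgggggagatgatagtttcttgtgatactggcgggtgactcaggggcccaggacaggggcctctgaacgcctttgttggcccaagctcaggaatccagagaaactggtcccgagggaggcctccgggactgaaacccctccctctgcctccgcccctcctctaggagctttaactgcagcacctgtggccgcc
Vcl: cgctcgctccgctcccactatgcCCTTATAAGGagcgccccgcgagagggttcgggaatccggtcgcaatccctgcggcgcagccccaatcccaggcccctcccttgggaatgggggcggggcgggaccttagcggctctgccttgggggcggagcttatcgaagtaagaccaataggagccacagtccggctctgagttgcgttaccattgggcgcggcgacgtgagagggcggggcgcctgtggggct
In Vcl the motif begins 227 bases before the start. A match is a description of the letters only, and the lack of one in these windows says nothing of SRF binding elsewhere.

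The rest of the junction genes also gave no call. A further list of 76 genes held adherens receptors, catenins and linkers, claudins, MARVEL proteins, angulins, junctional adhesion molecules, scaffolds and polarity proteins. Of these, 74 had a probe set with their name and 59 were tested; 15 lay below the filter, 10 of them claudins, with signals from 1.24 to 148.2. Without a block 0 of the 59 passed (0% of 11055 genes tested), and 0 had an unadjusted p under 0.05 (66 of the 11055). With the block 0 rose and 0 fell (0.253% and 0.615% of all tested genes), and 0 passed with a robust prior (50 of the 11055). An unadjusted p under 0.05 in the blocked fit was found for 8 of the 59, against 980 of the 11055. Both cKO arrays were above both het arrays for 8 of the 59 (8.18% of all tested genes) and below them for 5 (10.9%). In all, 30 were higher and 29 lower, and the median difference was 0.005, against -0.02 for all tested genes.

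**Figure D5:**
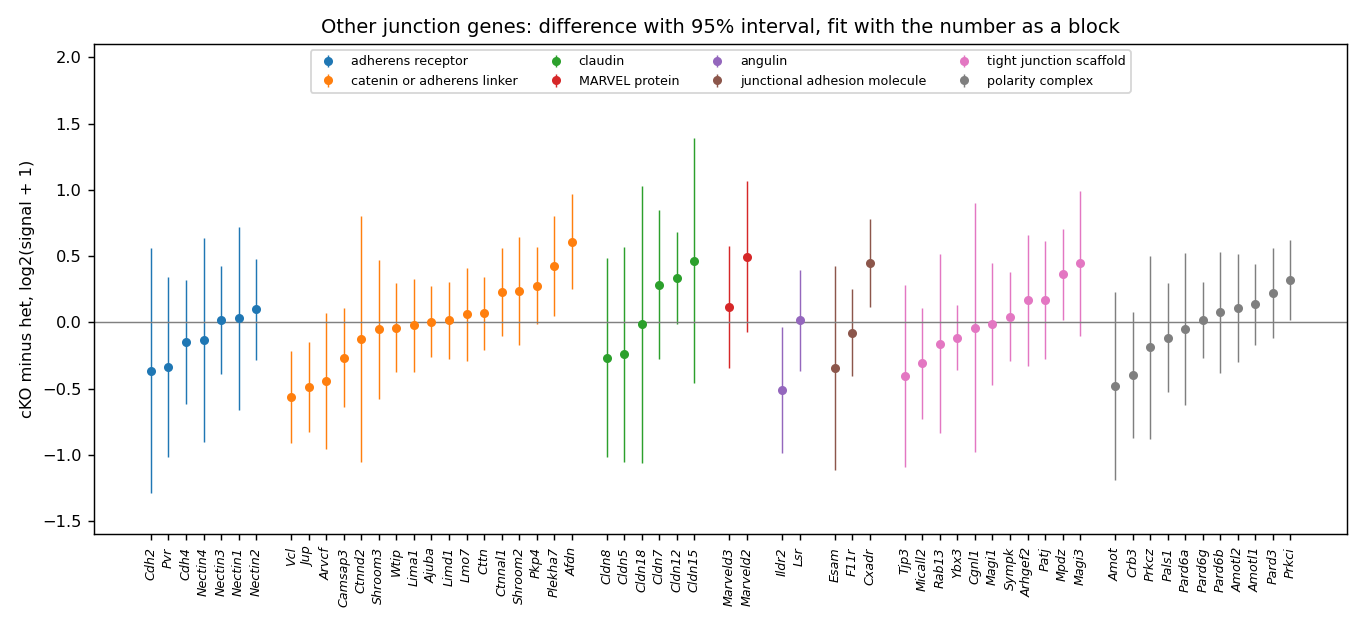
Log2 difference between cKO and het with its 95% interval, from the fit with the number as a block, for the 59 tested genes of the further list, grouped by role and ordered by value within a role. The values run from -0.56 (Vcl) to 0.61 (Afdn), and 0 of them passed.

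Among the adherens linkers the largest differences had opposite signs. Afdn encodes afadin, which ties nectins to actin. It had 662.7 and 1478 in het and 1162 and 1959 in cKO, higher within both numbers (0.81 and 0.41), with 0.61 ± 0.18 and an adjusted p of 0.106. Vcl encodes vinculin, which strengthens the link of α-catenin to actin and also acts at integrin adhesions. It had 2076 and 3558 in het and 1833 and 1849 in cKO, lower mainly within the second number (-0.18 and -0.94). Its difference of -0.56 ± 0.17 had an adjusted p of 0.134. Jup encodes plakoglobin, a relative of β-catenin shared with desmosomes. It had 3472 and 2564 in het and 1913 and 2361 in cKO, lower mainly within the first number (-0.86 and -0.12), with -0.49 ± 0.17 and an adjusted p of 0.228. The groups did not overlap for Vcl and Jup, and overlapped for Afdn. The other genes whose promoters held a CArG box had differences of 0.33 ± 0.17 (Cldn12, a claudin) and -0.02 ± 0.17 (Lima1, the actin linker EPLIN).

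Of the proteins that seal corners and strands, Marveld2, which encodes tricellulin, a protein of tricellular contacts, is the neighbouring protein-coding gene of Ocln. It had 170.2 and 166.6 in het and 246.2 and 230.2 in cKO. Both cKO arrays were higher by a like amount (0.53 and 0.46), and the difference of 0.50 ± 0.28 had an adjusted p of 0.634. Cldn15 had 82.6 and 62.5 in het and 88.6 and 112.1 in cKO (0.47 ± 0.45), close to the filter. Ildr2, of the angulin family at the same cell corners, had 353.6 and 427.8 in het and 269.4 and 277.5 in cKO. Its difference was -0.51 ± 0.23 (adjusted p = 0.494), and another Ildr2 probe set, 1436221_at, gave 0.09 ± 0.40. By group, the median difference was -0.13 over 7 adherens receptors, 0.005 over 17 catenins and linkers, 0.14 over 6 claudins, 0.31 over 2 MARVEL proteins, -0.25 over 2 angulins, -0.08 over 3 junctional adhesion molecules, -0.01 over 11 scaffolds and 0.02 over 11 polarity proteins.

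Markers of other layers and cells differed between the same samples. In limma with the block, 0.615% of all tested genes fell. Of 8 suprabasal markers 3 fell in that fit, namely the keratins Krt1 and Krt10 and suprabasin (Sbsn), and 5 did not pass. Of those 5, the cornified envelope genes Ivl and Lor differed in sign between the numbers, with 1.75 and -0.78 for Ivl and 1.68 and -0.75 for Lor. The summed signal of the 8 was 146671 and 95000 in het and 92627 and 74792 in cKO, or 0.632-fold and 0.787-fold within the numbers. Of 10 dermal fibroblast markers 3 fell (Col3a1, Twist2 and Vim; 0 with a robust prior), and the sum was 48655 and 41008 in het and 36821 and 38151 in cKO. In sign, 7 of the 10 were lower and 3 higher (Col5a1, Dcn and Pdgfra). Dcn had the highest signals of the list, 19907 and 19073 in het and 21841 and 18828 in cKO. Of the 5 periderm markers 4 were tested and 0 passed, while 2 had an unadjusted p under 0.05 (980 of all 11055 tested genes). The 5 markers summed to 22860 and 9249 in het and 11828 and 8630 in cKO. Krt17 made up most of that sum (22346 and 8581 in het, 11473 and 8048 in cKO), and the other 4 markers lay at 413 or below. The sums of the 8 basal markers were 205414 and 150709 in het and 191846 and 145512 in cKO, 0.934-fold and 0.966-fold within the numbers. Endothelial, melanocyte, immune and Merkel cell lists summed to at most 1461 on any array; of their tested genes the immune marker Laptm5 fell (adjusted p = 0.0683 with a robust prior) and the others did not pass. No marker of any list was at 0, but the lowest signal was 2.59 (immune list), and 0 of the 4 Merkel markers passed the filter. Such low signals do not show that a cell type was present. At their brightest probe sets, Marveld1, Cldn4 and Tjp1 were higher in the cKO array of each number, in which the suprabasal and fibroblast sums were lower. The part of cell composition in their differences was not tested.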

How the data were processed

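RNA of the 4 samples was extracted with Trizol, labelled with biotin by a 3' IVT kit and hybridised to expression arrays, per the labels. The authors deposited 1 linear intensity per probe set and array, made with MAS5 as named in the submitters' processing notes; the sources used here do not name its version. On each array the mean intensity with 2% trimmed at each end was 500, so levels are relative. Of 45101 probe sets, 64 are controls and were not tested; 34945 of the others had 1 gene symbol, 932 several and 9160 none. Log2(signal + 1) was fitted with limma 3.58.1 in R 4.3.3 (lmFit, eBayes with a trended prior variance). Tests were two-sided, and p-values were adjusted by Benjamini-Hochberg across the 22518 probe sets above the median mean log2 signal. Without a block the fit had 2 residual degrees of freedom, and with the title number as a block 1, beside 34.4 prior degrees of freedom. Same-numbered arrays deviated together from their group means (correlation 0.755); with 2 pairs and no label for the numbers, they were treated as a batch, not as paired animals. An exact permutation of 2 against 2 arrays cannot give a two-sided p below 0.333. The pipeline was tested on simulated data. A gene is represented by its probe set of highest mean signal. Named outside the 10 genes were, by rule, any called gene of the further list and, with 1 sign within both numbers, the 3 largest rises and 3 largest falls; Cldn3, Cldn12, Cldn16 and Lima1 were named for their neighbours or promoters. Members and lists were chosen with earlier results of these data known. Having 2 samples a group limits the precision. Figures were drawn with matplotlib 3.10.9.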

Additional observations from a re-analysis of the deposited data

How the results depend on the processing

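With the title number as a replicate block, 1 probe set of the 10 genes passed where 0 did without it. It was 1 as well with the block and a robust prior, a mean signal of at least 100, a pseudocount of 16, quantile scaling or median centring, each time Marveld1. It was 0 with the block and no variance trend or no filter, and 0 without the block under every alternative run, each array left out included. The further junction genes gave 0 calls under all 19 alternatives. In the main fit without the block 0 of all 22518 tested probe sets passed, that of the deleted gene Srf included. The 0 calls in fits without the block therefore say little about these genes. Of 314 values for 16 named genes, 293 kept their direction and side of the threshold, 6 passed where they had not (Marveld1, 0.71 to 0.86) and 15 changed sign. Sign changes came with other probe sets, at -0.064 (Cdh3), -0.042 (Ctnna1), -0.14 (Ctnnb1), -0.14 (Ocln), -0.93 (Marveld1) and 0.090 (Ildr2). They also came with 1 array left out, where the numbers are unbalanced between the genotypes and the lone array of a group is assumed to vary like the others. There the range was -0.099 to 0.11 for Cdh1, -0.14 to 0.22 for Ctnnb1, -0.19 to 1.32 for Cldn4, -0.063 to 0.37 for Tjp1 and -0.021 to 0.52 for Ocln. Median centring moved the median of all tested genes by 0.12 and that of the brightest probe sets of the 10 genes to 0.24; 8 of the 10 were higher with either scaling. Leaving out an array with the block had no residual degrees of freedom and was not run. Dim probe sets are imprecise.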
